A study of Mus musculus with 8 samples.

Results

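Translation initiation and elongation factors were examined as a group in the cardiac ventricles of male tumor-bearing mice. The members were all protein-coding genes of the deposited count table whose symbol begins with Eif or Eef and a number from 1 to 6, which gave 63 of the 43346 genes listed. The rule used names only and no measured value. One group held 4 C57BL/6 mice injected with LLC1 cells, a Lewis lung carcinoma line, and the other held 4 C57BL/6 mice injected with the vehicle, phosphate-buffered saline (PBS). All 8 mice were male, were 7 weeks old at injection and were sampled 14 days later, and each tumor-bearing mouse received 1000000 cells. Each library was made from total RNA of cardiac ventricular tissue, so the values cover transcripts of all cells of the tissue and not protein or phosphorylation. In such bulk tissue, fewer cells of a type and less RNA per cell cannot be told apart. Mice are named by their injection and the replicate code of their label, such as PBS 1-1.

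Protein synthesis starts when eIF4E binds the cap of an mRNA and the scaffold eIF4G and the helicase eIF4A open its 5′ end. The small ribosomal subunit then arrives with eIF3 and with eIF2, which carries the initiator tRNA and is recharged with GTP by eIF2B. Elongation factor eEF1A brings each following aminoacyl-tRNA and eEF2 moves the ribosome along by a codon. The pathway has well known brakes, namely the eIF4E-binding repressors released by mTORC1, the kinases that phosphorylate eIF2 alpha, and eEF2 kinase. Heart muscle is known for using the eEF1A2 form of eEF1A beside the eEF1A1 form found in most tissues. The study asked, among other questions, whether hearts of tumor-bearing mice differ from control hearts in protein synthesis and in gene expression.

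Total counts ranged from 15342214 to 19747596 in the LLC1 libraries and from 12480706 to 16192158 in the PBS libraries. The lowest count of any tested member in any mouse was 24. The first principal component held 31.5% of the variance and separated the groups, and the second held 25.2% and set PBS 1-1, the shallowest library, apart from the other mice. The labelled tissue was checked against marker genes. The 8 cardiomyocyte markers summed to between 89090 and 105159 CPM (counts per 1000000, after scaling of the libraries by trimmed mean of M-values, TMM), whereas 3 atrial markers summed to between 2.02 and 4.41 CPM, 5 skeletal muscle markers to between 1.18 and 2.45 CPM with 1 of them at 0 in every mouse, and 5 lymphocyte markers to between 0.453 and 2.41 CPM. Marker levels also moved with the group. The cardiomyocyte markers summed to between 98691 and 105159 CPM in LLC1 mice and to between 89090 and 92238 CPM in PBS mice, with positive differences for 6 of 8 and an edgeR call for Myh6. Endothelial markers summed to between 652 and 768 CPM against between 757 and 1008 CPM, with 0 of 5 positive and Kdr and Emcn called lower. Fibroblast, macrophage and dividing-cell markers had 2, 1 and 4 genes called lower and 0 called higher, and summed to between 693 and 770, between 116 and 143 and between 2.30 and 4.81 CPM in LLC1 mice against between 726 and 921, between 117 and 178 and between 14.2 and 44.7 CPM in PBS mice. The neutrophil genes S100a8 and S100a9 were called higher at group means of at most 1.13 CPM. Of 5 erythroid markers 0 were called and 5 had positive differences. They summed to between 1428 and 5180 CPM in LLC1 mice and to between 1556 and 3097 CPM in PBS mice. The part of these marker levels in the results on translation factors was not tested.

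Of the 63 genes, 62 passed the filter on low counts, and the remaining one, Eif4e1b, an eIF4E relative of the germ line, had 0 counts in every mouse. Together the members had between 9354 and 9784 CPM in PBS mice and between 10248 and 10841 CPM in LLC1 mice after TMM scaling. The 2 groups did not overlap on this scale. As a plain percent of all counts, without TMM scaling, they made up between 0.874% and 1.03% in PBS mice and between 0.991% and 1.04% in LLC1 mice, and these ranges overlapped. The 7 elongation factors held 39.8% of the PBS sum and the 13 cap-binding and eIF4F genes 29.1%. The median coefficient of variation of a member among mice was 5.49% in the LLC1 group and 7.97% in the PBS group, and 5.79% in the PBS group without PBS 1-1.

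**Figure D1:**
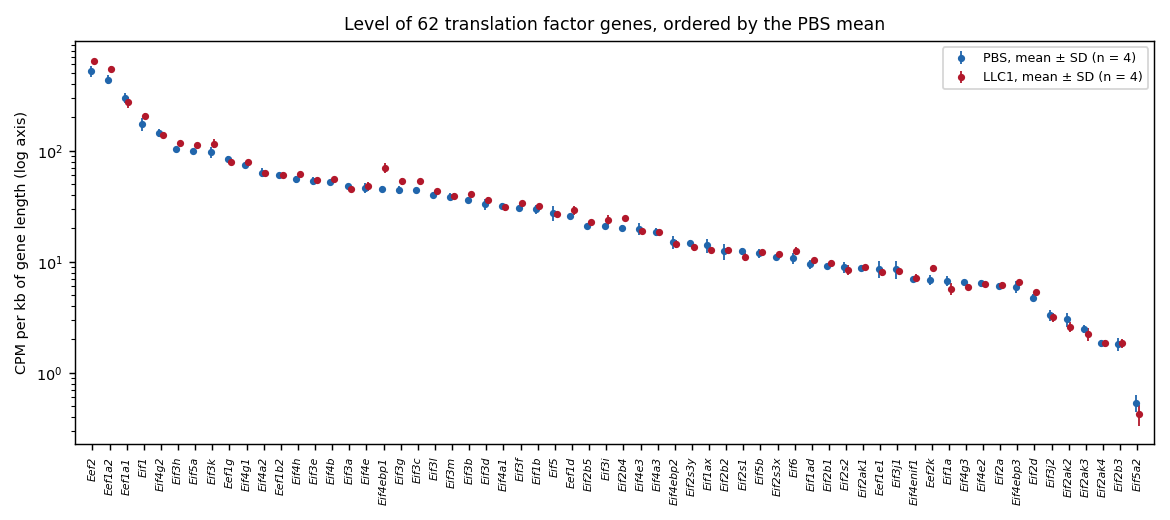
Mean level of the 62 detected translation factor genes in CPM per kb of gene length on a log axis, ordered by the PBS mean, with the SD over 4 mice as vertical lines for PBS (blue) and LLC1 (red). The elongation factors Eef2, Eef1a2 and Eef1a1 lead in both groups and Eif5a2 is lowest.

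Levels of different genes were compared per kb of gene length as deposited, which counts bases that a single transcript need not hold (2493 for Eef1a1, whose longest transcript has 1794). Eef2, the translocation factor, stood highest in PBS hearts with 527 ± 60.2 CPM per kb (SD, n = 4), followed by Eef1a2 with 439 ± 41.3 CPM per kb. The intervals of mean ± SD of these neighbours overlapped, so their order was not resolved. Eef1a1 followed with 301 ± 29.4 CPM per kb, separate from Eef1a2 by the same measure. Eif1, which guards start codon choice, had 174 ± 23.2 CPM per kb and Eif4g2, an eIF4G relative that lacks the eIF4E site, 144 ± 11.6 CPM per kb, and their intervals overlapped. These 5 genes kept ranks 1 to 5 in LLC1 hearts. The eIF2 alpha kinase genes Eif2ak2, Eif2ak3 and Eif2ak4 were at ranks 58 to 60 of 63, with Eif2ak4 at 1.84 CPM per kb, whereas Eif2ak1 was at rank 46 with 8.87 CPM per kb. Of the detected genes, Eif5a2, the less common eIF5A gene, was last with 0.536 ± 0.0967 CPM per kb.

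Across the whole table, edgeR's quasi-likelihood test at a false discovery rate (FDR) under 0.05, adjusted over 16111 genes, called 8.73% of genes, 4.12% higher and 4.61% lower in LLC1 mice. Of the 62 translation factors, 6 were called higher (9.68%) and 0 lower. At an unadjusted p under 0.05, edgeR counted 18 members higher (29.0%) and 0 lower, against 12.4% and 13.0% of all genes. DESeq2 called 10 members higher and 0 lower, against 5.65% and 5.26% of all genes. With limma-voom 7 were higher and 0 lower, against 4.23% and 4.36%. The 6 called genes were Eif4ebp1, Eif3c, Eif2b4, Eef1a2, Eef2k and Eif3b. In 15 members (24.2%) all 4 LLC1 mice lay above all 4 PBS mice, against 8.89% of all genes. In 0 members did they all lie below, against 8.27% of all genes. Without PBS 1-1 the counts were 16 above and 1 below, against 12.6% and 12.2% of all genes in the same 7 mice. The log2 fold change was positive for 39 members and negative for 23, with a median of 0.03 against -0.01 over all genes tested. Scaling to total counts only moved the median of the members to -0.02 and that of all genes to -0.06. The members then had 28 positive and 34 negative log2 fold changes, 1 member (Eif4ebp1) was called higher and 0 lower, and 6 members lay wholly above and 2 wholly below the PBS mice, against 4.43% and 11.1% of all genes. At an unadjusted p under 0.05 the split was then 8 higher and 6 lower. Over all genes the calls then numbered 225 higher (1.4%) and 793 lower (4.92%), against 663 and 743 with TMM. The count of called members also depended on single mice. It was 3 without LLC1 1-2, 2 without LLC1 1-3, 3 without LLC1 1-5, 2 without LLC1 2-2 and 1 without PBS 1-3, fits in which 2.02%, 1.70%, 1.92%, 2.16% and 1.30% of all genes were called higher. It was 4 without PBS 2-1, 9 without PBS 2-5 and 8 without PBS 1-1, whose library stood apart, with 2.25%, 4.99% and 5.56% of all genes called higher.

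**Figure D2:**
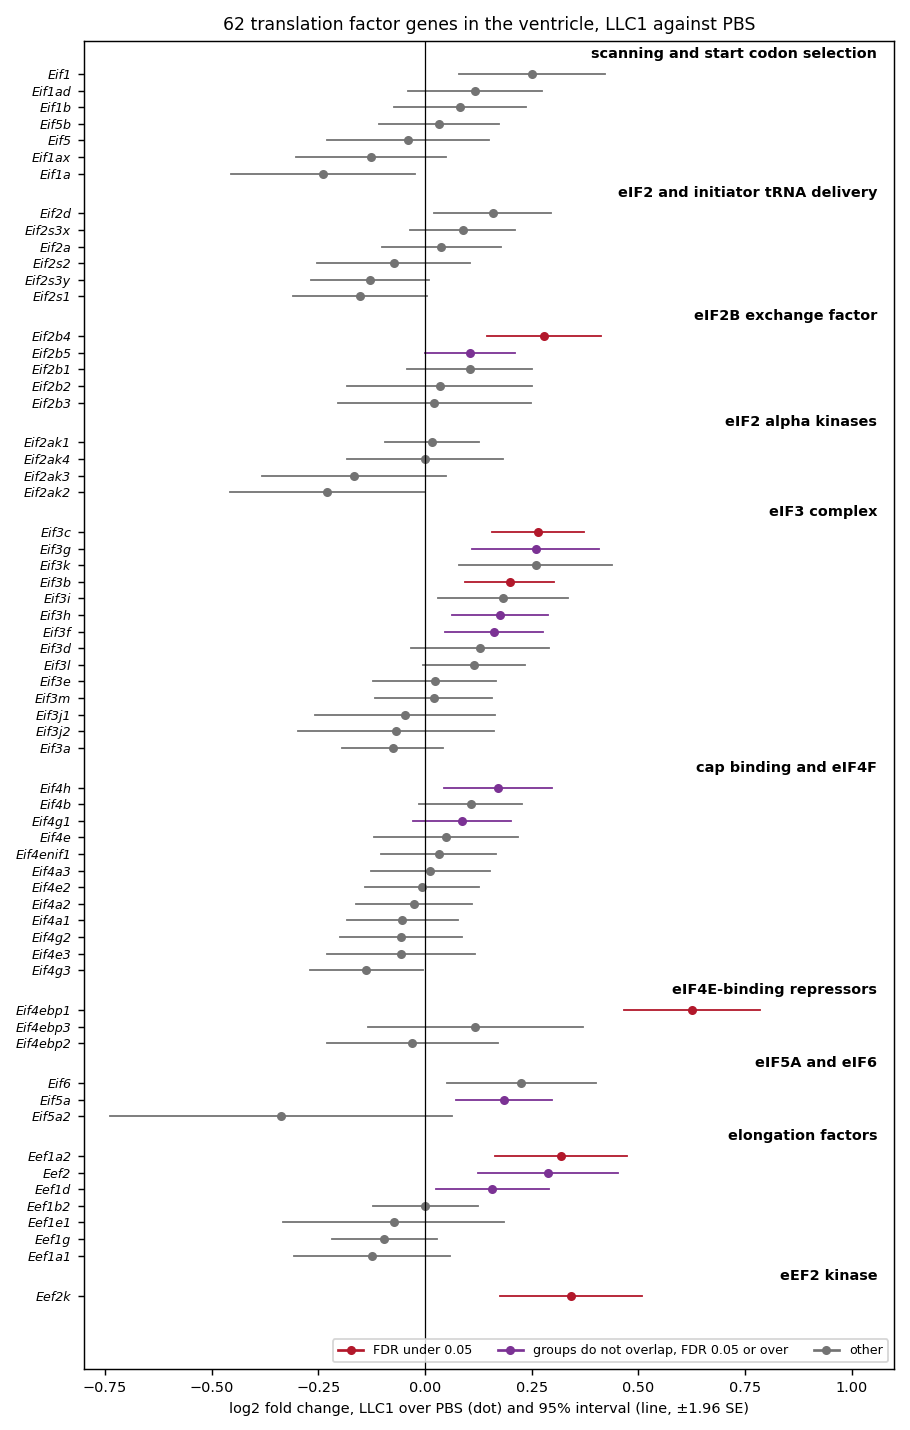
Log2 fold change of LLC1 over PBS with its 95% interval (dot and line) for the 62 tested translation factor genes, grouped by role, with FDR under 0.05 in red and other genes whose groups do not overlap in purple. The 6 red genes all lie to the right of 0, Eif4ebp1 farthest. Intervals of 3 of the 4 eIF2 alpha kinases and of most cap-binding genes span 0. That of Eif2ak2 ends just below 0, although its unadjusted edgeR p was 0.0724.

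The largest difference among the called members was in the eIF4E-binding repressors, which hold eIF4E away from eIF4G until mTORC1 phosphorylates them. Eif4ebp1 (ENSMUSG00000031490, mm10 chr8:27260327-27275656) had 79.1, 66.0, 62.7 and 68.0 CPM in LLC1 mice 1-2, 1-3, 1-5 and 2-2. It had 42.3, 42.9, 44.9 and 48.4 CPM in PBS mice 1-1, 1-3, 2-1 and 2-5. The lowest tumor-bearing mouse was thus well above the highest control. Eif4ebp1 rose 1.54-fold (log2 fold change 0.63, SE 0.08, edgeR FDR 0.00139, exact permutation p = 0.0286, the smallest that 4 mice against 4 allow). It was called in each of the 8 fits that left out 1 mouse and in each of the 8 other settings, total counts included. Its relative Eif4ebp2 had 23.2, 26.5, 26.3 and 28.5 CPM in LLC1 mice and 31.0, 22.2, 27.6 and 26.2 CPM in PBS mice. These ranges overlapped, and the 95% interval of the log2 fold change, from -0.23 to 0.17, excluded the size seen for Eif4ebp1. Eif4ebp3 was scarce, with 5.03, 4.94, 4.70 and 4.73 CPM in LLC1 mice and 4.38, 4.07, 4.12 and 5.25 CPM in PBS mice, which overlapped (edgeR FDR 0.607). Reads of Eif4ebp3 are uncertain because 67.7% of its longest transcript is shared with a readthrough gene.

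The partner that these repressors bind, the cap-binding protein gene Eif4e, had 153, 141, 128 and 129 CPM in LLC1 mice and 135, 137, 146 and 114 CPM in PBS mice. The groups overlapped, with a log2 fold change of 0.05 (95% interval from -0.12 to 0.22, edgeR FDR 0.766). Of the 12 tested cap-binding and eIF4F genes, 0 were called by edgeR, DESeq2 or limma-voom, 1 had an unadjusted edgeR p under 0.05, and 6 had positive log2 fold changes. That gene was Eif4h, a cofactor of the eIF4A helicase, with 149, 153, 150 and 153 CPM in LLC1 mice against 122, 130, 143 and 141 CPM in PBS mice. Its groups did not overlap, yet the difference of 0.17 on the log2 scale did not pass the adjusted test (edgeR FDR 0.120). The scaffold gene Eif4g1 was likewise wholly above the PBS mice, at between 568 and 583 CPM against between 502 and 561 CPM, with edgeR FDR 0.389. The helicase genes Eif4a1 and Eif4a2 had log2 fold changes of -0.05 and -0.03 and overlapping groups.

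Elongation carried a pair of called genes, one a factor and one a brake. Eef2k (ENSMUSG00000035064, chr7:120842831-120907219), the kinase that phosphorylates and blocks eEF2, had 66.3, 63.4, 57.1 and 64.4 CPM in LLC1 mice and 43.1, 46.7, 55.1 and 52.9 CPM in PBS mice. The lowest LLC1 mouse, 1-5, was just above the highest PBS mouse, 2-1. Eef2k rose 1.27-fold (log2 fold change 0.34, SE 0.08, edgeR FDR 0.0296). The call was lost without LLC1 1-2, LLC1 1-3, LLC1 2-2 or PBS 1-3, with an FDR of at most 0.107 over the 8 fits, and with total counts only (FDR 0.129).

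Eef1a2 (ENSMUSG00000016349, chr2:181147653-181157014), the muscle and nerve form of eEF1A, had 1086, 1127, 1120 and 1235 CPM in LLC1 mice. In PBS mice it had 787, 947, 975 and 953 CPM, with PBS 1-1 the low one. Eef1a2 rose 1.25-fold (log2 fold change 0.32, SE 0.08, edgeR FDR 0.0287). Without PBS 1-1 the log2 fold change was 0.25 and the FDR 0.0198. The call was lost without LLC1 1-3, LLC1 1-5, LLC1 2-2 or PBS 1-3 (FDR of at most 0.0881 over the 8 fits) and with total counts only (FDR 0.149). Its broadly expressed relative Eef1a1 had 805, 667, 628 and 651 CPM in LLC1 mice and 650, 753, 771 and 826 CPM in PBS mice. Each range took in most of the other, and the log2 fold change was -0.13 (95% interval from -0.31 to 0.06, edgeR FDR 0.435). Counts of Eef1a1 may be split with the processed pseudogene Gm13456, which is 98.6% identical over 1317 bases.

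Eef2 itself had 2120, 1971, 1929 and 1952 CPM in LLC1 mice and 1395, 1631, 1654 and 1850 CPM in PBS mice. All LLC1 mice were higher, and PBS 2-5 was the control nearest to them. With a log2 fold change of 0.29 (SE 0.08), Eef2 just missed the threshold (edgeR FDR 0.0526). DESeq2 and limma-voom called it, as did edgeR without PBS 1-1 (FDR 0.0487), whereas the FDR reached 0.138 with a mouse left out and was 0.207 with total counts only. Of the other elongation factors, Eef1d, a subunit of the eEF1A exchange complex, had separate groups (between 160 and 192 CPM against between 152 and 155 CPM, edgeR FDR 0.170). The complex's other subunits Eef1b2 and Eef1g, with log2 fold changes of 0.00 and -0.10, had overlapping groups.

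**Figure D3:**
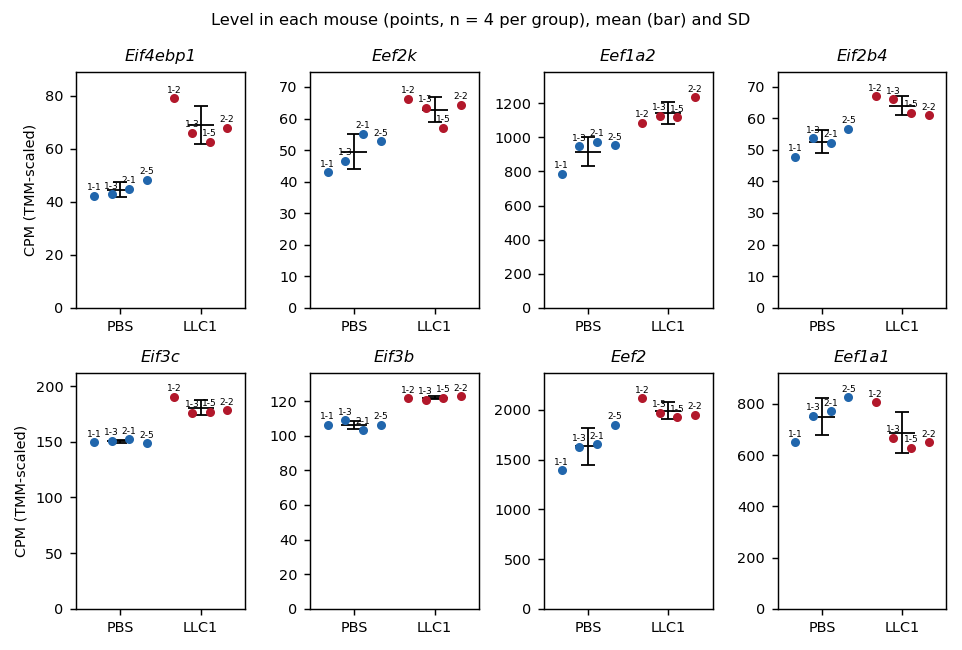
TMM-scaled CPM of the 6 called genes and of Eef2 and Eef1a1 in each mouse (points, labelled with the replicate code), with the group mean and SD (bars, n = 4), PBS in blue and LLC1 in red. In Eif4ebp1 the LLC1 mice lie between 62.7 and 79.1 CPM, all above the PBS mice, whereas the groups of Eef1a1 overlap.

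The eIF3 complex, the largest initiation factor and a platform on the small ribosomal subunit, had 14 tested genes. Of these, 2 were called higher, 7 had an unadjusted edgeR p under 0.05, 11 had positive log2 fold changes, and 5 had separate groups. The 7 were all higher, against 12.4% of all genes higher at that p. Over all genes 4.12% were called higher, 47.9% had positive log2 fold changes and 8.89% had LLC1 mice wholly above the PBS mice. With total counts only 0 were called, 2 had an unadjusted p under 0.05 and 9 were positive. Eif3c (ENSMUSG00000030738, chr7:126546455-126566411), a core subunit, had 191, 176, 177 and 178 CPM in LLC1 mice and 150, 151, 152 and 148 CPM in PBS mice. Spread within each group was small beside the gap between them. Eif3c rose 1.20-fold (log2 fold change 0.26, SE 0.06, edgeR FDR 0.0145). It lost the call without PBS 1-3 (FDR 0.0554) and with total counts only (FDR 0.0749).

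Eif3b (ENSMUSG00000056076, chr5:140419305-140443358), the scaffold subunit that contacts the small ribosomal subunit, had 122, 121, 122 and 123 CPM in LLC1 mice and 106, 109, 103 and 106 CPM in PBS mice. The 4 LLC1 mice were within 3 CPM of each other and all above the PBS mice. The rise was 1.15-fold (log2 fold change 0.20, SE 0.05, edgeR FDR 0.0390). Its call held in only 2 of the 8 fits that left out a mouse, those without PBS 1-1 and without PBS 2-5, with an FDR of at most 0.103. With total counts only the FDR was 0.196, and it also lost the call when every gene with a count was tested. Eif3g, Eif3h and Eif3f had separate groups with edgeR FDRs of 0.0541, 0.0800 and 0.112, and Eif3k and Eif3i, with log2 fold changes of 0.26 and 0.18, overlapped. The largest subunit gene, Eif3a, had a log2 fold change of -0.08 with overlapping groups. The genes Eif3j1 and Eif3j2 are 99.4% identical over 2379 bases, so their separate counts are uncertain.

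Among genes for eIF2B, the exchange factor that recharges eIF2 and is blocked by phosphorylated eIF2, all 5 had positive log2 fold changes and 1 was called, and with total counts only 3 were positive and 0 called. Over all genes 47.9% were positive and 4.12% called higher. Eif2b4 (ENSMUSG00000029145, chr5:31187558-31193430), the delta subunit, had 66.9, 66.0, 61.8 and 60.9 CPM in LLC1 mice and 47.8, 53.6, 52.3 and 56.6 CPM in PBS mice. The groups did not overlap, and the lowest value was again that of PBS 1-1. Eif2b4 rose 1.21-fold (log2 fold change 0.28, SE 0.07, edgeR FDR 0.0281), a call that held only without PBS 1-1 or without PBS 2-5 when single mice were left out (FDR of at most 0.0887) and that was lost with total counts only (FDR 0.145). Exons of Eif2b4 share 7.85% of their bases with Snx17 on the other strand, and the strand setting of the counting is not given in the sources used here. Eif2b5, the catalytic subunit, had separate groups at between 71.6 and 74.5 CPM against between 66.8 and 68.7 CPM, a log2 fold change of 0.10 that was not called (edgeR FDR 0.246).

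The 4 kinases that phosphorylate eIF2 alpha and so lower initiation showed no call by edgeR, DESeq2 or limma-voom, and 0 had an unadjusted edgeR p under 0.05. The heme-regulated kinase gene Eif2ak1 had 51.6, 50.6, 50.3 and 51.2 CPM in LLC1 mice and 50.6, 52.0, 49.1 and 49.6 CPM in PBS mice. Its 95% interval ran from -0.09 to 0.13 on the log2 scale. Eif2ak2, the kinase PKR that senses double-stranded RNA, had 14.9, 13.6, 11.4 and 13.4 CPM against 14.2, 14.4, 14.6 and 18.9 CPM in PBS mice. The groups overlapped, with PBS 2-5 high (log2 fold change -0.23, edgeR FDR 0.240). Eif2ak3, the endoplasmic reticulum stress kinase PERK, had 14.1, 12.4, 10.2 and 11.9 CPM against 12.1, 13.7, 13.7 and 14.8 CPM, which also overlapped (edgeR FDR 0.369). Eif2ak4, the amino acid sensor GCN2, had 13.6, 13.4, 12.8 and 15.3 CPM against 12.4, 13.3, 14.9 and 14.3 CPM, again with overlapping groups (edgeR FDR 0.998).

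For eIF2 and the other factors that bring the initiator tRNA, 0 of 6 genes were called by edgeR, DESeq2 or limma-voom and 1 had an unadjusted edgeR p under 0.05. This was Eif2d, an alternative carrier of tRNA, with 39.7, 37.1, 39.6 and 40.5 CPM in LLC1 mice and 32.9, 38.8, 34.5 and 34.4 CPM in PBS mice. PBS 1-3 lay within the LLC1 range, and the edgeR FDR was 0.183. The eIF2 subunit genes Eif2s1 and Eif2s2 had log2 fold changes of -0.15 and -0.07 with overlapping groups. Of the 7 genes for scanning and start codon selection, 0 were called by the same 3 tools and 1 had an unadjusted edgeR p under 0.05. Eif1 had 463, 409, 428 and 436 CPM in LLC1 mice and 437, 350, 339 and 334 CPM in PBS mice. Here PBS 1-1 was the high control and reached into the LLC1 range. Over all mice the log2 fold change was 0.25 (edgeR FDR 0.0985), and without PBS 1-1 it was 0.35 and was called (FDR 0.00395).

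The factor genes Eif5a and Eif6 had positive log2 fold changes without an edgeR call. Eif5a, whose product carries hypusine and helps ribosomes through proline stretches, had 280, 270, 269 and 256 CPM in LLC1 mice and 229, 244, 230 and 242 CPM in PBS mice. The groups were separate, with a log2 fold change of 0.18 (edgeR FDR 0.0659), and DESeq2 called the gene. Eif6, which keeps the large ribosomal subunit from joining too early, had between 30.7 and 36.5 CPM against between 25.8 and 33.3 CPM (edgeR FDR 0.138).

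Ratios of related genes within a library need no scaling between libraries, and 8 such ratios were compared by exact 2-sided permutation tests with Benjamini-Hochberg adjustment over the 8. The ratio of Eef1a2 counts to Eef1a1 counts was 1.35, 1.69, 1.78 and 1.90 in LLC1 mice and 1.21, 1.26, 1.26 and 1.15 in PBS mice. All 4 tumor-bearing mice were above the controls, LLC1 1-2 by the least (difference of mean log2 ratio 0.45, exact p = 0.0286, adjusted 0.0762). Per kb of length the mean ratio was 2.01 in LLC1 mice and 1.46 in PBS mice with the deposited lengths. The ratio of Eif4ebp2 to Eif4ebp1 was 0.293, 0.401, 0.419 and 0.420 in LLC1 mice and 0.732, 0.518, 0.615 and 0.541 in PBS mice. Every tumor-bearing mouse was below the controls (difference -0.65, exact p = 0.0286, adjusted 0.0762). The third ratio without overlap was that of the Y-linked Eif2s3y to the X-linked Eif2s3x, both for the gamma subunit of eIF2, at 1.16, 1.37, 1.26 and 1.26 against 1.68, 1.40, 1.43 and 1.38. The LLC1 mice were lower (difference -0.22, exact p = 0.0286, adjusted 0.0762), by a narrow margin between LLC1 1-3 and PBS 2-5. None of the 8 passed 0.05 after adjustment, and with these 8 mice an exact p cannot be smaller than 0.0286. Counts of Eif2s3x are uncertain because the pseudogene Gm2223 is identical to it over 1350 bases. The 5 other ratios overlapped between the groups.

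**Figure D4:**
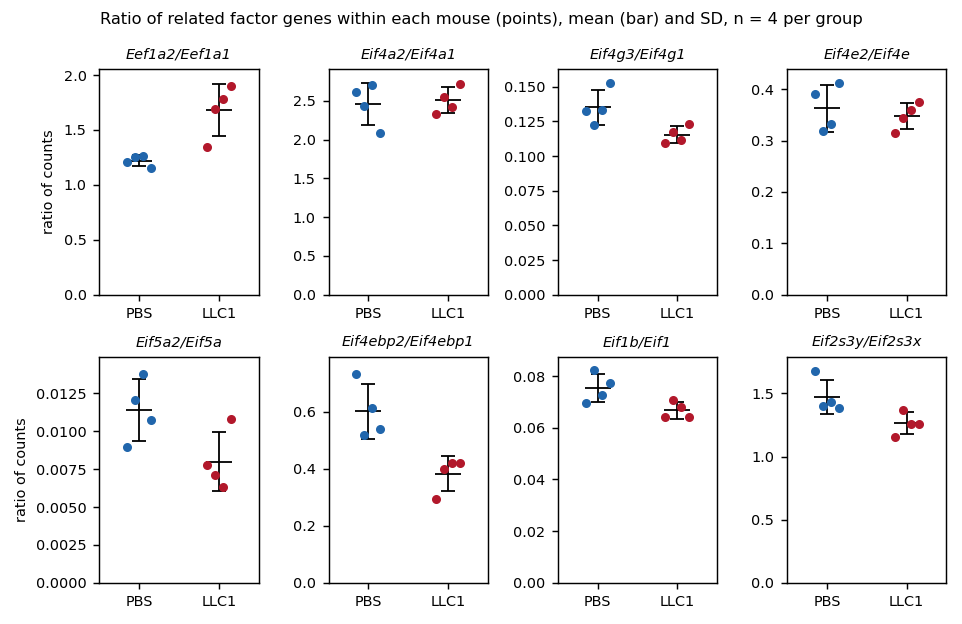
Ratio of the counts of related factor genes within each mouse (points) for 8 pairs, with the group mean and SD (bars, n = 4), PBS in blue and LLC1 in red. Ratios of Eef1a2/Eef1a1 lie higher and those of Eif4ebp2/Eif4ebp1 and Eif2s3y/Eif2s3x lower in all 4 LLC1 mice, and the other 5 pairs overlap.

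Features of the genes that the choice by name did not use were read from RefSeq start windows (GRCm38.p6, 250 bases before to 50 after the start), which held 49 of the 63 members. A gene with several windows counted as holding a motif if any of them did, among members and all genes alike. Many mRNAs of the translation machinery are known to begin with a C and a run of pyrimidines, which makes their translation depend on mTORC1. A C followed by at least 4 bases of C or T, beginning at one of the first 4 bases from the annotated start, was found in 7 of 49 members (14.3%), against 9.58% of 27025 genes with a window. The stretches below show, in capitals, this run in members whose LLC1 and PBS mice did not overlap and in the eIF2 gamma pair, from 10 bases before to 20 after the start.
Eif3b (chr5:140419295-140419324, plus strand): ggcgcgcggtgaCTTCTgggagtcggaagc
Eif3f (chr7:108934405-108934434, plus strand): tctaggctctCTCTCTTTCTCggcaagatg
Eif4g1 (chr16:20672717-20672746, plus strand): gcgcagctccgCCCTCTgcgccggtcacgt
Eif2s3x (chrX:94212632-94212661, minus strand): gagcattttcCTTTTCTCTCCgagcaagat
Eif2s3y (chrY:1010585-1010614, plus strand): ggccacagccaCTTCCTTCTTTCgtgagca
Of these 7 members 3 had LLC1 mice wholly above the PBS mice and 1 was called, against 9 and 4 of the 42 others and 8.89% and 4.12% of all genes. A start annotated a few bases away would move a match. The absence of one says only that no such run begins at the first 4 bases from the annotated start. Eef1a1, for example, had no match, though a pyrimidine run begins before its annotated start and crosses it.

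The E-box CACGTG, a palindrome and thus the same on both strands, was found in 12 of 49 members (24.5%). It was found in 8.09% of all 27025 genes with a window, tested here or not. This motif was chosen after the values were seen. Of the 12, 6 had LLC1 mice wholly above the PBS mice and 1, Eef2k, was called, against 6 and 4 of the 37 others and 8.89% and 4.12% of all genes. The called share was thus not higher in members with the box, whereas the share wholly above was higher. Neither difference was tested. The median log2 fold change was 0.12 in the 12 and 0.02 in the 37. The stretches below give the E-box in capitals in these 6, and the number after each gene is the distance of its first base from the start of transcription.
Eef2k, -31 (chr7:120842788-120842817, plus strand): cccggggacggcCACGTGagcccgggcgtg
Eef2, -43 (chr10:81176576-81176605, plus strand): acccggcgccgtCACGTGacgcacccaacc
Eif4g1, -54 (chr16:20672661-20672690, plus strand): ggcagtgggtgtCACGTGatggggcggagc
Eif3f, -68 (chr7:108934335-108934364, plus strand): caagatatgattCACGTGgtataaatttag
Eif5a, -74 (chr11:69921443-69921472, minus strand): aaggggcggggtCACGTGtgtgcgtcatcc
Eif4h, -96 (chr5:134639488-134639517, minus strand): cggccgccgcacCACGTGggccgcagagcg
Further boxes in these genes stood at -178 in Eif5a and at 16 in Eif4g1, and the printed box of Eif5a lies at -185 from another annotated start. The motif TGATGNAA of the integrated stress response, also chosen after the values were seen and searched on both strands, was in 2 of 49 members (4.08%), Eef2k and Eif2s3x, against 4.51% of all genes. A match in a window is a description of its letters and not a bound site.

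The regulators around the factors were followed as lists. The mTORC1 list, upstream of translation, had 20 tested genes, with the eIF4E kinase genes Mknk1 and Mknk2 counted beside those of mTORC1. Of the 20, 3 were called higher and 0 lower by edgeR (4.12% and 4.61% of all genes). At an unadjusted p under 0.05, 6 were higher and 0 lower, and 16 had positive log2 fold changes (14 with total counts only). Each of the 3 was also called with total counts only. Mknk2, the kinase MNK2 that phosphorylates eIF4E, had 404, 406, 388 and 406 CPM in LLC1 mice and 258, 275, 269 and 280 CPM in PBS mice. It rose with a log2 fold change of 0.57 (SE 0.06, edgeR FDR 0.000489), the groups lying far apart. Sesn1, a sestrin that inhibits mTORC1, had 188, 192, 206 and 194 CPM against 145, 128, 135 and 129 CPM and rose by 0.54 on the log2 scale (SE 0.06, edgeR FDR 0.000832). Akt1s1, the mTORC1 inhibitor PRAS40, had 43.2, 40.1, 45.9 and 43.8 CPM against 40.1, 32.4, 27.2 and 30.2 CPM. Its lowest LLC1 mouse and highest PBS mouse, 1-1, were almost equal, and the log2 fold change was 0.42 (SE 0.10, edgeR FDR 0.0291). Ddit4, the stress-induced mTORC1 inhibitor REDD1, had 130, 119, 135 and 105 CPM against 73.2, 75.7, 30.7 and 103 CPM. Its groups were separate, though the spread among PBS mice was wide and the log2 fold change of 0.79 was not called (edgeR FDR 0.0761). Rptor and Tsc2 also had separate groups without a call, with log2 fold changes of 0.18 and 0.24 (edgeR FDR 0.0818 and 0.0785). Sesn2, Sesn3 and Deptor had log2 fold changes of -0.07, -0.06 and 0.10 with overlapping groups. Mtor itself had a log2 fold change of 0.06 with overlapping groups.

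**Figure D5:**
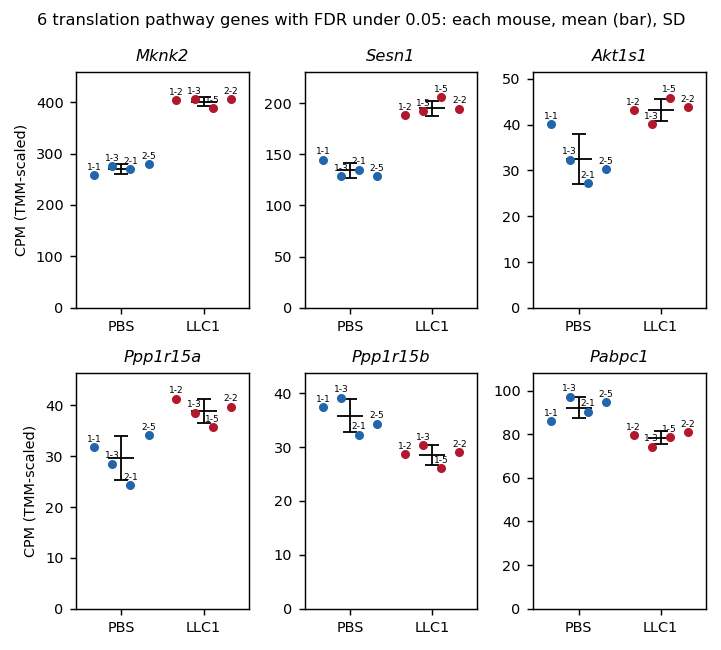
TMM-scaled CPM of 6 genes of the mTORC1, stress response and poly(A)-binding lists with FDR under 0.05 in each mouse (points, labelled with the replicate code), with the group mean and SD (bars, n = 4), PBS in blue and LLC1 in red. Mknk2, Sesn1, Akt1s1 and Ppp1r15a lie higher and Ppp1r15b and Pabpc1 lower in all 4 LLC1 mice.

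Of 16 tested genes listed for the integrated stress response, which follows phosphorylation of eIF2, 1 was called higher and 1 lower (4.12% and 4.61% of all genes), and 5 were higher and 2 lower at an unadjusted p under 0.05. Both called genes code for the regulatory subunits that lead a phosphatase back to eIF2 alpha. The inducible form, Ppp1r15a (GADD34), had 41.3, 38.6, 35.8 and 39.7 CPM in LLC1 mice and 31.8, 28.5, 24.3 and 34.2 CPM in PBS mice, a rise of 0.39 on the log2 scale (edgeR FDR 0.0329, and 0.0677 with total counts only). The constitutive form, Ppp1r15b (CReP), had 28.6, 30.4, 26.0 and 29.0 CPM against 37.4, 39.1, 32.3 and 34.3 CPM and fell by 0.33 (edgeR FDR 0.0288). Neither gene had overlapping groups. Atf4, the transcription factor at the center of this response, had 61.7, 55.4, 60.3 and 55.8 CPM against 70.5, 59.2, 50.1 and 54.1 CPM, with overlapping groups (edgeR FDR 0.996).

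Among 6 poly(A)-binding proteins and partners, which tie the tail of an mRNA to eIF4G, 0 were called higher and 1, Pabpc1, lower (4.12% and 4.61% of all genes). It had 79.6, 74.2, 78.6 and 81.0 CPM in LLC1 mice and 86.1, 97.1, 90.3 and 94.7 CPM in PBS mice, a fall of 0.23 on the log2 scale (edgeR FDR 0.0372, and 0.0522 with total counts only). Of 76 cytosolic ribosomal protein genes 5 were called higher, among them the stalk protein genes Rplp0 and Rplp2, and 0 lower (4.12% and 4.61% of all genes). At an unadjusted edgeR p under 0.05, 25 were higher and 0 lower (12.4% and 13.0% of all genes). Log2 fold changes were positive for 63 of the 76, with a median of 0.14. DESeq2 called 12 of them higher, limma-voom 5, and edgeR with total counts only 1, each with 0 lower. Of all genes these called 5.65%, 4.23% and 1.4% higher. The lists for termination and recycling (8 tested) and for mitochondrial translation factors (10 tested) each had 0 genes called by edgeR, DESeq2 or limma-voom. At an unadjusted edgeR p under 0.05 the first had 1 higher and 1 lower and the second 0 higher and 2 lower.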

How the data were processed

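Gene-level read counts of 8 ventricle libraries (TruSeq RNA, 150-base paired reads) were used as deposited by the authors. The counts are whole and not normalized. The submitters' processing notes name CASAVA, STAR, featureCounts and the mm10 genome, and versions, strand and multi-mapping settings are not given in the sources used here. Members were taken by name from the table. The members and the gene lists were chosen with earlier results of these data known. Counts were compared with edgeR 4.0.16 in R 4.3.3 (filterByExpr, TMM factors, quasi-likelihood F-test, Benjamini-Hochberg adjustment over 16111 genes, FDR under 0.05). The 95% intervals are ±1.96 SE. They use the multiplier of a normal distribution and can exclude 0 where the unadjusted edgeR p is over 0.05, as for Eif2ak2 and Eif4g3. CPM are TMM-scaled, and 1 CPM is 12 to 20 counts, which bounds the precision of scarce genes. Exact permutation tests used all 70 arrangements of the mice. Nothing in the labels says how the animals were caged or processed together, and p-values measure the spread between these 8 mice. Groups share only code 1-3, carried by different mice, so no pairing was made. The test was checked on simulated data.

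Values in every mouse were given for members with FDR under 0.05, for the member with the lowest p of each role group, and for the eIF4E-binding repressors, eIF2 alpha kinases, Eif4e, Eef1a1, Eef1a2, Eef2 and Eef2k. Genes of the other lists are named where called, and further ones were picked as examples after their values were seen. Alternatives were DESeq2 1.42.0, limma-voom (limma 3.58.1), upper-quartile factors, total counts only, at least 1 count in any mouse, at least 10 counts in every mouse, a term for the leading digit of each mouse's code, offsets for gene length, and each mouse left out. Overlapping exons and similar transcripts (at least 97% identity over 150 bases, BLAST 2.17.0) were taken from GENCODE M21.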

Additional observations from a re-analysis of the deposited data

Results flagged for a closer look

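Among the groups of 4 mice examined for members and ratios described mouse by mouse, 6 of 54 held a mouse far from the other 3 by Dixon's test, which flags about 1 in 20 groups by chance. PBS 1-1 accounted for 3 of them. Its Eef1a2 level was 787 CPM against 947 to 975 CPM in the other PBS mice, its Eif1 level was 437 CPM against 334 to 350 CPM, and its ratio of Eif2s3y to Eif2s3x was 1.68 against 1.38 to 1.43. LLC1 1-2 accounted for 2, with an Eif3c level of 191 CPM against 176 to 178 CPM in the other LLC1 mice and a ratio of Eif4ebp2 to Eif4ebp1 of 0.293 against 0.401 to 0.420. The Eif2ak2 level of PBS 2-5 was 18.9 CPM against 14.2 to 14.6 CPM.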

How the results depend on the processing

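The count of translation factors called higher was 6 in the edgeR analysis, 10 with DESeq2 and 1 with total counts only, and between 1 and 9 when single mice were left out. It was between 6 and 8 with upper-quartile factors, the other filters, limma-voom, a term for the code's leading digit or gene length offsets. In each of these settings 0 were called lower. Gene length offsets moved the split of all calls to 990 higher and 609 lower. Eif2ak1 changed sign with total counts only (-0.0374). Eif2ak4, near 0 in the edgeR analysis, was positive with DESeq2 (0.00053), at least 1 count in any mouse (0.0144), the code term (0.050) and length offsets (0.0877), and lay between -0.0641 and 0.0355 with single mice left out. Eif4e became -0.00546 with total counts only and lay between -0.0237 and 0.0917 with single mice left out, and Eif4ebp2 between -0.114 and 0.0432. Total counts only shifted the median of all genes by -0.054 on the log2 scale, and the values of Eif2ak1 and Eif4e moved with it. The cause of the other changes was not tested. Over 19 members described mouse by mouse and 16 alternatives, 252 of 304 values kept direction and side of the threshold, 27 lost the call, 10 gained one and 15 changed sign. Only the 6 called members could lose a call. Of the 16 alternatives, Eif3b lost it in 8, Eif2b4 in 7, Eef1a2 and Eef2k in 5 each, Eif3c in 2 and Eif4ebp1 in 0. Within code 1 (3 LLC1 and 2 PBS mice) the differences of the 6 called members ran from 0.18 to 0.69 on the log2 scale. Within code 2 (1 and 2) they ran from 0.16 to 0.54. Their sign was fixed beforehand and adds no support, because in all 6 every LLC1 mouse lay above every PBS mouse. No paired analysis was possible because the groups share only 1 replicate code. The scarcest tested member, Eif5a2, had as few as 24 counts in a library, so counting error adds to its spread.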

Other observations

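LLC1 1-2 had the highest level of its group in 39 of the 62 tested members and the lowest in 8. In the PBS group no mouse was the highest in more than 19 members, and PBS 2-5 and PBS 1-1 were the lowest in 24 and 23.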
